A study of Nothobranchius furzeri with 12 samples.

Results

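The genes described here were abundant in the skin of the turquoise killifish Nothobranchius furzeri, had far lower levels in its brain, and differed less than 10-fold between skins. They were chosen from measured values. A gene was taken when its median over 5 skins was at least 50 CPM (counts scaled to the library's total of gene counts), when its median over 6 brains was at most 1% of that, and when the highest skin was less than 10-fold above the lowest after 0.5 CPM had been added to each. Of the 23546 gene identifiers in the series, 2043 had the skin median, 168 of these were also restricted to skin by the brain limit, and 143 were steady enough to be kept. The other 25 skin-restricted genes varied 10-fold or more. With values scaled by TMM factors (trimmed mean of M-values, a scaling that allows for the few genes that fill skin libraries) the rule would take 224 genes, 138 of them among the 143. With the library labelled as the skin of fish 6 counted as a skin it would take 18.

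The species is short-lived and serves as a model of ageing. Skin libraries (fish 8, 12, 38, 41 and 46, and 1 further library labelled as the skin of fish 6) and brain libraries (fish 6, 8, 24, 38, 41 and 46) were made from total RNA of fish of the strain MZM-0410 at 39 weeks of age, with 1 library per fish and tissue. The design text writes the strain as MZM-0401. No label gives sex, and none says whether equal numbers mark the same animal. The fish are thus all of 1 strain and 1 age, and nothing here bears on ageing.

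Fish skin carries a living epidermis, with mucus-secreting cells, over a dermis rich in collagen that bears scales, pigment cells, vessels and nerves, and layers beneath it can come away with a skin sample. Brain is made mainly of neurons and glia. Genes that one tissue uses heavily and the other hardly at all mark what each tissue is built from, and in whole-tissue RNA their levels also follow how much of each cell type a sample holds. In such samples fewer cells of a type and less RNA per cell cannot be told apart.

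The deposited table gives each gene an identifier and no name. None of its identifiers (0 of 23546) matched any of the 38438 genes that RefSeq lists for the assembly NfurGRZ-RIMD1. Names, functions, positions and sequences are therefore not given, the 8 lists of cell type markers could not be applied, and the labelled tissues could not be checked against known markers. Genes are called by their rank in median skin CPM, and the identifiers of the first 2 are printed.

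Libraries held 9100419 to 27094192 gene counts. The library labelled skin of fish 6 was left out as brain-like when the genes were chosen and is called the set-aside library below. The 618 genes of the mirrored kind (brain median of at least 50 CPM, skin median at most 1% of it) had in that library a median of 93.7% of their brain level. In skin of fish 41 they were at 2.11%, and in the other 4 skins at 0.145 to 0.272%. The mean share of reads and the ratio of highest to lowest skin are given with and without skin of fish 41. Means of single genes, fitted differences and the brain level as a percent of skin are given only with it. The number of genes taken, the mean share and the genes called are also given with the set-aside library counted as skin.

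The 143 genes took a large part of the reads of skin. Their share was 23.3% in skin of fish 8, 22.8% in fish 12, 28.6% in fish 38, 11.1% in fish 41 and 29.4% in fish 46, against 0.0283 to 0.0723% in the 6 brains. Skin of fish 41 was the lowest of the skins, and all skins lay far above every brain. The choice of genes by skin level and brain median builds in a gap between the tissues, though it limits no single brain. The mean was 23.1 ± 7.30% in skin (SD, n = 5), 26.0 ± 3.45% without fish 41 (SD, n = 4) and 0.0421 ± 0.0164% in brain (SD, n = 6). The same sum taken on values scaled by TMM factors came to 36.3 on the percent scale, and to 37.5 with DESeq2 size factors. Scaled values no longer add up to the library total, so these figures are not shares of reads. The 88 genes within a 5-fold limit took 13.5% of skin reads. Counting the set-aside library as skin too gave 19.4 ± 11.04% (SD, n = 6). The 143 genes were 0.607% of the identifiers.

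**Figure D1:**
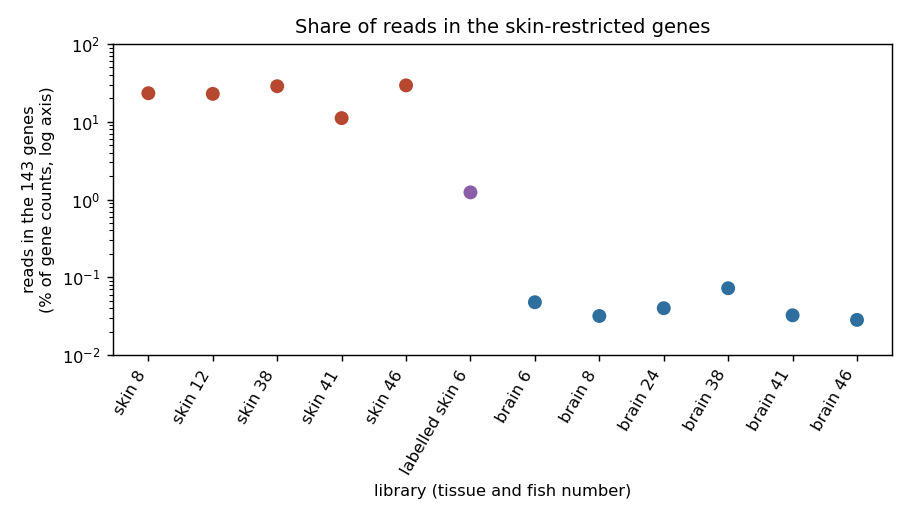
Share of gene counts in the 143 skin-restricted genes in each library, on a log axis, with 1 point per library (skin, the set-aside library, brain). The skins lie between 11.1% and 29.4%, the set-aside library at 1.24%, and the brains between 0.0283% and 0.0723%.

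Within the group, levels were very uneven. The skin medians ran from 53.7 to 23738 CPM, with a median of 283 CPM over the 143 genes. The 8 genes with a median of at least 10000 CPM made up 49.0% of the group's summed skin CPM, the 30 genes of 1000 to 10000 CPM 37.95%, the 65 genes of 100 to 1000 CPM 11.7%, and the 40 genes of 50 to 100 CPM 1.42%. The 10 most abundant alone took 12.6 ± 4.22% of all skin reads (SD, n = 5), 14.4 ± 1.49% without fish 41 (SD, n = 4) and 0.0181 ± 0.00804% of brain reads (SD, n = 6).

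The fitted difference between the tissues is a description, since the rule used the same contrast. In an edgeR fit over all genes and 11 libraries, 143 of the 143 genes were called higher in skin at a false discovery rate of 0.05, where 36.8% of the 20149 genes tested were. With all 12 libraries as labelled, 142 of the 142 that passed the filter were called, against 31.8% of all genes tested. Their log2 differences, skin minus brain, had a median of 9.73, with 8.29 and 11.48 as the 10th and 90th percentiles. Approximate standard errors (SE) were worked back as the size of the difference over the square root of its F statistic. They ran from 0.18 to 1.04. At differences this large they can understate the error, most of all where the brains hold few reads. The gene ranked 139 had an approximate SE of 0.47 on 1 read in the 6 brains. The smallest difference was 7.63, for the gene ranked 102. It had 55.5 CPM in skin of fish 8, 126 in fish 12, 154 in fish 38, 37.5 in fish 41 and 113 in fish 46, against 0.706 to 1.71 CPM in the brains. The largest fitted value, 13.16, belonged to the gene ranked 139, which had 46.46 to 95.7 CPM in the skins and 1 read in all 6 brains together, so that its size rests on the constant the fit adds to small counts. Over all genes the median difference was -0.06 with the TMM factors used and -1.25 with library size alone, so the size of each difference moves with the scaling.

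Gene Nfu_g_1_022849 ranked 1. It had 29029 CPM in skin of fish 8, 28581 in fish 12, 22934 in fish 38, 7563 in fish 41 and 23738 in fish 46, against 12.8 CPM in the lowest brain, a brain median of 19.3 and 35.2 in the highest. Skin of fish 41 lay below the others, and the other 4 lay within 1.27-fold of each other. The mean was 22369 ± 8723 CPM in skin (SD, n = 5) and 21.9 ± 8.83 CPM in brain (SD, n = 6), a fitted log2 difference of 11.20 (approximate SE 0.52). Its gene length, as implied by its count and RPKM, was 5242 bases.

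Gene Nfu_g_1_007569 ranked 2, with 15562 CPM in skin of fish 8, 20463 in fish 12, 18070 in fish 38, 3853 in fish 41 and 18878 in fish 46, against 5.24, 14.9 and 36.6 CPM as the lowest, the median and the highest brain. Again 1 skin, that of fish 41, was low, and the others lay within 1.31-fold. The mean was 15365 ± 6675 CPM in skin (SD, n = 5) and 16.5 ± 10.98 CPM in brain (SD, n = 6), a log2 difference of 11.07 (approximate SE 0.72).

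The same low value in skin of fish 41 ran through most of the first 10. The gene ranked 3 had 13775 CPM in skin of fish 8, 16333 in fish 12, 12835 in fish 38, 3161 in fish 41 and 14385 in fish 46. The gene ranked 4 had 14230, 13045, 12776, 3509 and 14494 CPM in the same order of fish, and the gene ranked 7 12168, 11785, 11146, 2429 and 12656. In each of these the 4 other skins lay within 1.27-fold of each other. The gene ranked 5 had 9463, 12036, 14363, 3226 and 15115 CPM, and the gene ranked 10 7235, 5448, 8125, 2362 and 8927 CPM, with a somewhat wider spread among the 4.

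The genes ranked 6, 8 and 9 had other patterns, although fish 41 was lowest for the gene ranked 8 too. The gene ranked 6 had 11884 CPM in skin of fish 8, 9974 in fish 12, 12188 in fish 38, 14000 in fish 41 and 10837 in fish 46, so fish 41 was the highest skin and the whole range was 1.404-fold. The gene ranked 9 had 7595, 4313, 6986, 7881 and 9023 CPM in the same order, with fish 12 lowest. The gene ranked 8 had 9172, 11337, 34869, 6670 and 31859 CPM. Skins of fish 38 and 46 thus stood far above the other 3 skins for this gene, and it was also the first-10 gene with the highest brain values, 54.3 to 127 CPM.

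**Figure D2:**
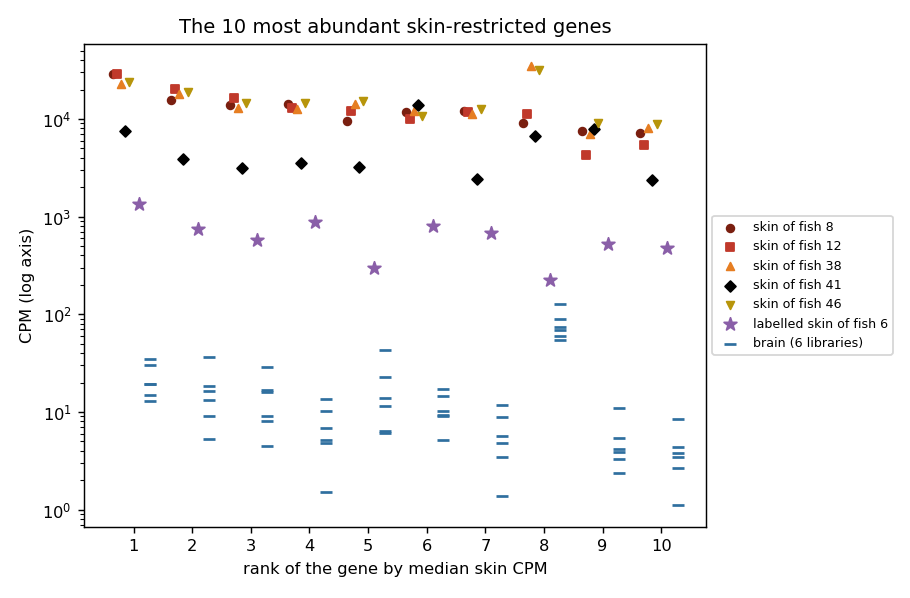
CPM, on a log axis, of the 10 most abundant skin-restricted genes, ranked by median skin CPM, with 1 symbol per library. Skin of fish 41 lies below the other skins for most of them and above them for the gene ranked 6, while the set-aside library lies between skin and brain for all 10.

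The next 10 genes, ranked 11 to 20, had skin medians of 2452 to 7037 CPM and log2 differences of 9.86 to 11.75, and 9 of these 10 were lowest in skin of fish 41. Of these, the genes ranked 13 to 16 are described, picked after their values were seen. The exception was the gene ranked 16, which had 5841 CPM in fish 41, the highest of the skins, and 3474 in fish 8, 2460 in fish 12, 4517 in fish 38 and 4180 in fish 46. The gene ranked 13 had 5260 CPM in fish 8, 4846 in fish 12, 6982 in fish 38, 2835 in fish 41 and 10715 in fish 46, so fish 46 stood above the rest. The gene ranked 15 had 4342, 4378, 10025, 3176 and 7958 CPM in the same order, with fish 38 and 46 high. The gene ranked 14 had 4624 CPM in skin of fish 8, 4699 in fish 12, 4730 in fish 38 and 4793 in fish 46, a range of 1.04-fold, and 490 CPM in fish 41. It had the narrowest range over those 4 skins in the group, and over all 5 a range of 9.77-fold, close to the limit of the rule.

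Counts rank long genes higher at the same number of transcripts, so levels between genes were also read per length, as the authors' RPKM, which divides by gene length. By that measure the gene ranked 5 by CPM came first, with a skin median of 35193 RPKM on a length of 342 bases, ahead of Nfu_g_1_007569 with 9131 RPKM on 1979 bases and the gene ranked 3 with 8288 RPKM on 1662 bases. Nfu_g_1_022849, first by CPM, was ranked 6 with 4528 RPKM. At the other end the longest gene of the group, with 88546 bases, ranked 19 by CPM and 118 of 143 by RPKM, at 33.9 RPKM. The genes ranked 4, 10 and 11, picked after their values were seen, had nearly equal lengths of 5814, 5817 and 5811 bases. All 3 were lowest in skin of fish 41. The genes ranked 77 and 86, with 5817 and 5820 bases, were lowest there too. Of the whole group 66.4% were lowest there, so nothing particular to genes of this length is read from it. How the authors' counting treated reads that match several genes is not stated in the labels or notes, and values of genes with near-identical copies are uncertain to that extent.

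The genes were steady only within the limit of 10-fold that chose them. The ratio of highest to lowest skin had a median of 4.24 over the 143 genes, with quartiles of 2.89 and 6.01. It was below 2 for 16 genes, from 2 to 5 for 72, and 5 or more for 55. The 1875 other genes with a skin median of at least 50 CPM, on which the rule set no limit, had a median ratio of 2.05 with quartiles of 1.62 and 3.06. Counting error was small beside this: the lowest count of any of the 143 genes in any of the 5 skins was 226 reads, for which it is 6.65%.

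Skin of fish 41 made much of the spread. Without it the median ratio was 2.09, with quartiles of 1.52 and 3.06, 65 genes had a ratio below 2 and 12 of 5 or more. The other abundant genes then had a median of 1.77. Of the 143 genes, 95 (66.4%) were lowest in skin of fish 41, 31 in fish 12, 10 in fish 8, 6 in fish 38 and 1 in fish 46. Among the 1875 other abundant genes, fish 41 was the lowest skin for 22.2% and fish 12 for 38.7%. The 95 genes had a median of 32.6% of their skin median in fish 41. The 31 genes lowest in fish 12 had a median of 51.1% there and of 119% in fish 41. With TMM-scaled values fish 41 was lowest for 94 of the 143, and with DESeq2 size factors for 98.

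**Figure D3:**
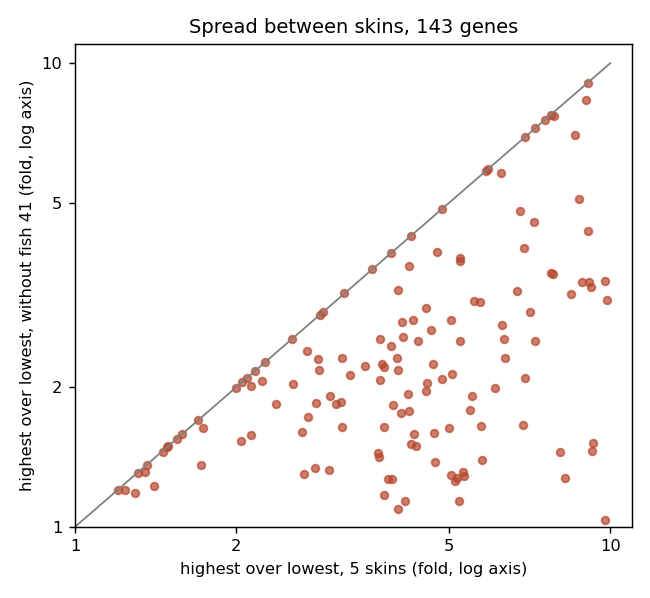
Ratio of the highest to the lowest skin for each of the 143 genes, over 5 skins (horizontal) and over the 4 skins other than fish 41 (vertical), both on log axes, with a line of equal values. The median is 4.24 over 5 skins and 2.09 without fish 41, and genes on the line have their highest and lowest values in the other 4.

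The low level in skin of fish 41 was not shared by the whole group. Relative to each gene's own skin median, this library had a median of 44.3% with quartiles of 28.01 and 99.8%, and extremes of 10.4 and 254%. There 78 genes were below 50% of their skin median, 36 at 50 to 100% and 29 above it. The 78 low genes took 4.11% of the reads in skin of fish 41 and 16.0 to 17.6% in the other 4 skins. The 29 genes above their median took 4.49% in fish 41 and 2.36 to 3.79% in the others. These classes were formed after the values were seen and are given with no test. The brain-restricted genes were at 2.11% in this same library, and the part of this in the low values was not tested.

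Among the other skins, the low and the high class stood far apart only in fish 12. In fish 8 the 78 low, 36 intermediate and 29 high genes were at medians of 100.2, 100 and 97.5% of their skin median. In the same order they were at 100, 109 and 100% in fish 38, and at 106, 137 and 100% in fish 46. In skin of fish 12 the 29 genes above their median in fish 41 were at a median of 58.4% of their skin median, and the 78 low genes at 100%. The skin median includes fish 41, so genes high there are drawn to 100% or below in other skins. This contrast is partly built in. In the set-aside library the 29 genes were at 6.93%, the 36 intermediate ones at 6.92% and the 78 low ones at 4.43%. Median gene length was 1344 bases for the 29, 1773 for the 36 and 2420 for the 78.

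**Figure D4:**
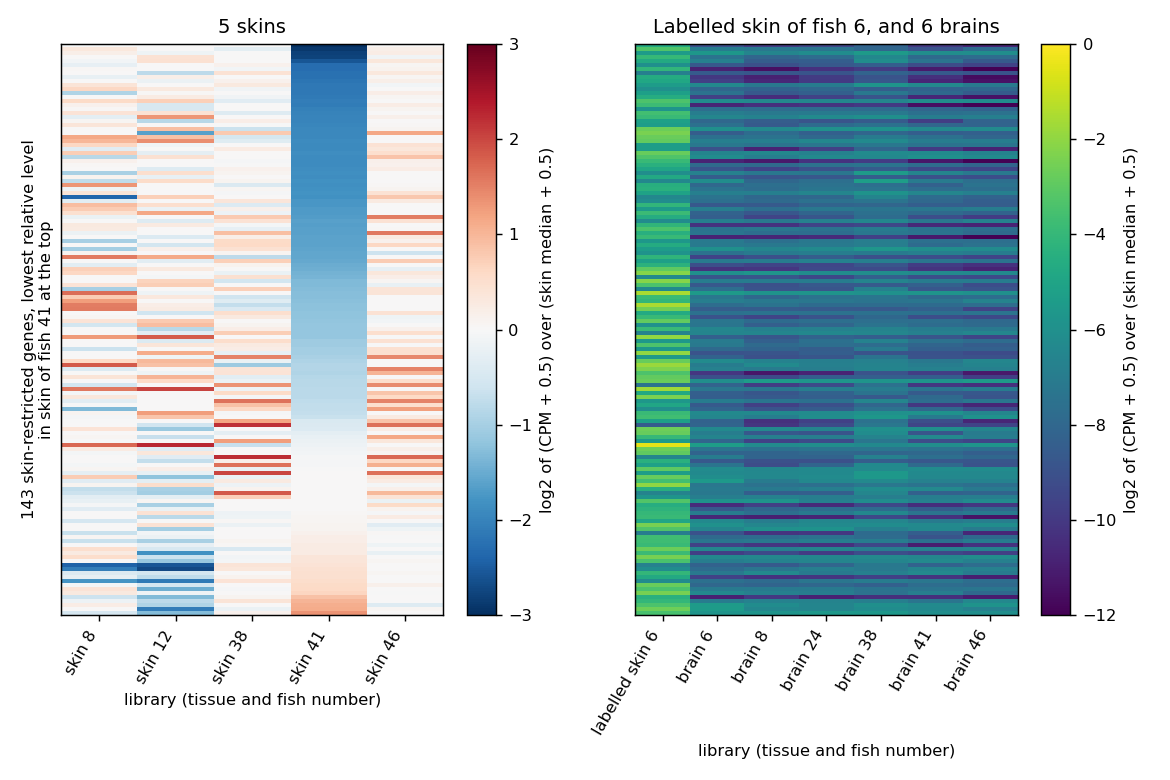
Level of each of the 143 genes relative to its median over the 5 skins, as log2 of (CPM + 0.5) over (skin median + 0.5), in the 5 skins (left, colours drawn to ±3) and in the set-aside library and the 6 brains (right, colours from -12 to 0), with genes ordered by their relative level in skin of fish 41. Fish 41 has 78 genes below 50% of their skin median and 29 above it, and most genes in the set-aside library stand above their level in every brain.

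Pairs of skins differed in how alike they were over the group. Skins of fish 38 and 46 were the closest, with a median difference of 1.17-fold in either direction and 3 of 143 genes more than 2-fold apart. Skins of fish 8 and 12 differed by a median of 1.35-fold, with 25 genes beyond 2-fold. Pairs among fish 8, 12, 38 and 46 other than these 2 had medians of 1.41 to 1.61-fold. Fish 41 differed from each of the others by a median of 2.37 to 2.85-fold, with 84 to 100 genes beyond 2-fold. Over the 1875 other abundant genes fish 38 and 46 were again closest, at 1.10-fold. There fish 41 stood at 1.26 to 1.38-fold from fish 8, 38 and 46, and at 1.71-fold from fish 12. Fish 12 stood at 1.36 to 1.52-fold from fish 8, 38 and 46, and fish 8 at 1.25 to 1.26-fold from fish 38 and 46. Fish 41 was thus not the most distant skin over those genes.

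Some genes divided the skins differently, and the following were picked after their values were seen. The gene ranked 28 had 417 CPM in skin of fish 8 and 327 in fish 12, and 1896 in fish 38, 2044 in fish 41 and 1428 in fish 46. The gene ranked 30 had 247, 225, 1732, 1772 and 1329 CPM in the same order of fish, and the gene ranked 32 had 287, 185, 1540, 1664 and 1209. In all 3 the skins of fish 8 and 12 were the low ones and fish 41 was the highest, and their lengths were 9137, 9459 and 6785 bases.

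Skins of fish 38 and 46 were the highest for another pair. The gene ranked 36 had 736 CPM in fish 8, 572 in fish 12, 4148 in fish 38, 1151 in fish 41 and 2250 in fish 46, and the gene ranked 41 had 928, 610, 4235, 692 and 2905. Both were highest in fish 38, next in fish 46 and lowest in fish 12. The range was 7.25-fold for the gene ranked 36 and 6.94-fold for the gene ranked 41, and it was as wide without fish 41.

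The 5 steadiest genes were of moderate level. The steadiest, ranked 115, had 76.5 CPM in skin of fish 8, 92.0 in fish 12, 88.8 in fish 38, 89.2 in fish 41 and 76.8 in fish 46, a range of 1.20-fold, against 0.327 to 1.10 CPM in the brains. The next, ranked 49, had 651, 654, 544, 529 and 654 CPM in skin, and 0.886 to 8.497 CPM in brain. The genes ranked 71, 109 and 88 followed, with ranges of 1.29, 1.31 and 1.35-fold and skin medians of 285, 93.6 and 179 CPM. Skin of fish 41 did not lie far from the others for these 5 genes, as their choice by the ratio over all 5 skins requires.

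In brain the 143 genes were low relative to skin but not without reads. The highest brain median was 71.4 CPM, for the gene ranked 8. The mean brain level was a median of 0.274% of the skin median, with a range over genes of 0.0127 to 1.10%, and the median was 0.126% on TMM-scaled values. The median count of a gene in a brain library was 12 to 26 reads. Between 1 and 5 genes had a count of 0 in a given brain library, 10 genes had it in at least 1 brain and 0 genes in all 6. A count of 0 allows a level of up to 0.132 to 0.171 CPM in these libraries (3 counts), and this limit covers counting error only.

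Brain of fish 38 held the most. Its share of reads in the 143 genes was 0.0723%, against 0.0478% in brain of fish 6, 0.0401% in fish 24, 0.0325% in fish 41, 0.0318% in fish 8 and 0.0283% in fish 46. It was the highest brain for 81 of the 143 genes (56.6%) and for 20.1% of the 1875 other abundant genes. The median level, as a share of the skin median, was 0.419% there and 0.188 to 0.307% in the other brains. The 4 fish numbers in both tissues did not share an order: fish 46 had the highest skin share, 29.4%, and the lowest brain share, 0.0283%, and fish 38 had 28.6% in skin and the highest brain share.

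The set-aside library was the one library whose values set no limit of the rule, although its resemblance to brain is why it was left out. The skins and brains beside it chose the genes, so its levels are given as a description, with no test. The 143 genes took 1.24% of its reads (95% Wilson interval 1.23 to 1.24%, for counting error only), which was 17.1 times the highest brain and 5.36% of the mean skin share. In this library 138 of 143 genes were above every brain, where 17.9% of all genes with a count and 35.3% of the 1875 other abundant genes were, and 142 of 143 were below every one of the 5 skins. Genes chosen for low brain and high skin values leave a wide space between the tissues, and nothing is read from these counts.

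Relative to their skin median, the genes in this library were at a median of 5.61%, with quartiles of 2.28 and 10.1%. On TMM-scaled values the median was 2.73%. There were 31 genes under 2%, 102 from 2 to 20% and 10 above 20%. Nfu_g_1_022849 had 1332 CPM there, or 5.61%, and Nfu_g_1_007569 had 743 CPM, or 4.11%. The 25 variable skin-restricted genes had a nearly equal median of 5.104%, with quartiles of 2.18 and 16.4%.

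The highest relative level was that of the gene ranked 128, which had 51.8 CPM in the set-aside library and 241 CPM in skin of fish 8, 352 in fish 12, 45.1 in fish 38, 65.7 in fish 41 and 73.1 in fish 46. It was the single gene that was not below every skin. The next 4, ranked 63, 140, 59 and 108, were at 124, 19.0, 133 and 26.5 CPM there, against skin medians of 355, 56.1, 429 and 94.8 CPM. All 5 were highest in skins of fish 8 or 12. At the other end, the genes ranked 36, 41, 98, 111 and 143 did not exceed the highest brain. The gene ranked 41 had 2.08 CPM in this library and 5.65 CPM in brain of fish 38, and the gene ranked 143 had 1 read in this library.

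Over the 143 genes the set-aside library was closest in pattern to skin of fish 8. After removal of the overall shift between the pair, the typical gene (median absolute deviation of the log2 ratio) differed by 0.83 from fish 8, 1.04 from fish 12, 1.09 from fish 41, 1.21 from fish 46 and 1.29 from fish 38. Pearson's r of log2(CPM + 0.5) over the 143 genes was 0.868 with fish 8 and 0.714 to 0.816 with the others. These correlations are across genes, which share libraries and differ widely in level, and they are given as a description.

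Gene length was not used by the rule. The 143 genes had a median length of 2183 bases with quartiles of 1112 and 4042, close to all 23212 genes with a count, at 2324 bases (quartiles 1096 and 4237). The 1875 other genes with a skin median of at least 50 CPM were longer, at 3676 bases (1962 and 6195), and the 25 variable skin-restricted genes shorter, at 1566 bases (933 and 2788). Genes under 1000 bases made up 21.7% of the 143, 22.4% of all genes with a count and 12.1% of the other abundant genes. Lengths ran from 288 to 88546 bases. A limit in CPM passes a short gene only at a higher level per base than a long one, and genes are not replicates, so these lengths are given as a description.

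**Figure D5:**
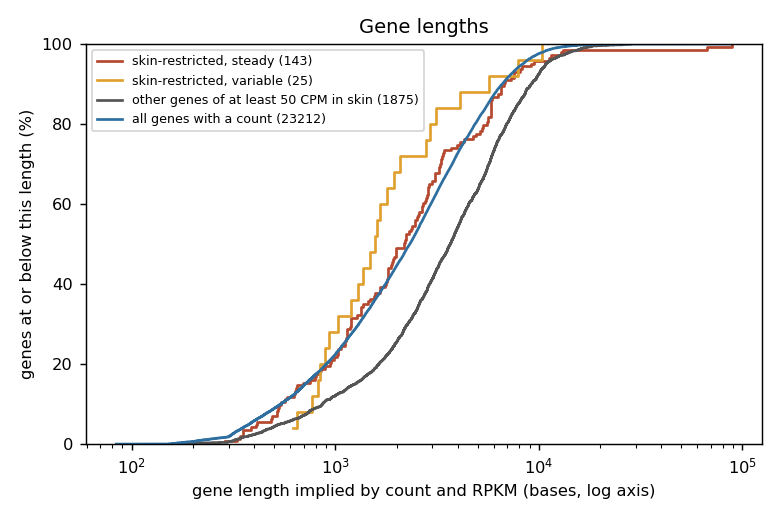
Cumulative share of genes by the gene length that count and RPKM imply, on a log axis, for the 143 steady skin-restricted genes, the 25 variable ones, the 1875 other genes of at least 50 CPM in skin and all 23212 genes with a count. The median is 2183 bases for the 143 genes and 3676 bases for the other abundant genes.

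The 25 variable skin-restricted genes, which lay outside the limit of 10-fold, were also mostly low in skin of fish 41. Their median level in skin of fish 41 was 21.2% of the skin median. There 21 of the 25 were lowest, against 66.4% of the 143 genes and 22.2% of the 1875 other abundant genes. The 25 were set apart by their range over these same skins, so a low value in 1 skin is part of what chose them. Their median ratio of highest to lowest skin was 19.2, and 6.86 without fish 41. They took 0.136% of the reads in skin of fish 41 and 0.717 to 1.03% in the other 4 skins.

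At the limits of the rule the genes graded into their neighbours. The lowest skin median inside was 53.7 CPM and the next one outside 49.8 CPM. The highest brain level inside was 0.990% of the skin median and the next outside 1.002%. The widest range inside was 9.86-fold and the next outside 10.2-fold.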

How the data were processed

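Libraries of total RNA were prepared with the Illumina TruSeq kit, per the labels' protocols. The submitters' processing notes name featureCounts 1.4.3-p1, TopHat2 2.0.6 and CASAVA 1.8.4. Build, annotation and strand setting: not given in the sources used here. The authors deposited 1 table with a whole-number count and an RPKM value per gene and library. In 23212 genes, the values of all libraries implied 1 gene length within a relative tolerance of 0.001, so the deposited RPKM is scaled to gene counts, and that length is the one used here. All columns matched 1 sample each.

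Genes were chosen on CPM (count over the library's sum of counts). The genes, lists and tests were chosen with earlier results of these data known, and no result given here is independent support for those. Tissues were compared with edgeR 4.0.16 under R 4.3.3 (TMM factors, default filter by tissue, robust quasi-likelihood fits, Benjamini-Hochberg adjustment), with DESeq2 1.42.0 as an alternative, and the edgeR fit was tested on simulated counts for skin against brain with 11 libraries. Of 19919 genes tested there, 98 were planted with a 2-fold change and 99 with a 4-fold change. The fit recovered 33.7% of the 98 and 84.8% of the 99, and called 8 unchanged genes. In the main fit 15376 of 20149 genes were called, and its performance with that many changes was not tested. Differences as large as those of the 143 genes, 7.63 to 13.16 in log2, were not tested either. The library labelled skin of fish 6 was left out of the main fit, as in the rule. No p-value is given for skin against brain, nor for that library against brain, since brain values chose the genes. Replicates are 1 library per fish and tissue, so fish and sample preparation are not separated. Genes were named by a fixed rule: the 10 highest in skin median, the 5 steadiest, the 5 highest in the library labelled skin of fish 6 relative to skin, and those at each limit. Others are said to be chosen after their values were seen, or are given as an extreme of a stated value. The 5 genes that did not exceed the highest brain in the library labelled skin of fish 6 are all such genes. Identifiers are not paired with names, so the part of the rule on gene names could not be applied. Python 3.11.15 with pandas 2.3.3 was used for the rest.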

Additional observations from a re-analysis of the deposited data

Results flagged for a closer look

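Groups of 5 skins or 6 brains were searched for 1 library far from the others. Of 48 groups examined, 11 held one. No rate expected by chance is set beside this, since the same libraries chose the genes. The skin median is taken over the same 5 skins, which draws most skins toward 100% of it. Many of the 48 groups measure the same thing and so do not count separately. Skin of fish 41 was low in 6 of them. Its 10 most abundant skin-restricted genes took 5.47% of the reads, against 13.0 to 16.0% in the other skins, and its median level was 44.3% of the skin median, against 100 to 105%. It had 7563 CPM of the gene ranked 1, against 22934 to 29029, 3161 of the gene ranked 3, against 12835 to 16333, 3509 of the gene ranked 4, against 12776 to 14494, and 2429 of the gene ranked 7, against 11146 to 12656. Skin of fish 8 had 1034 CPM of the gene ranked 63, against 152 to 406 in the other skins.

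Brain of fish 38 had 0.0333% of its reads in the 10 most abundant genes, against 0.0118 to 0.0199% in the other brains, and 10.9 CPM of the gene ranked 9, against 2.39 to 5.47. Brain of fish 8 had 1.55 CPM of the gene ranked 63, against 1.07 to 1.18, and brain of fish 6 had 0.770 CPM of the gene ranked 140, against 0.407 to 0.513. Both rest on few reads: 35 against 19 to 26 for the gene ranked 63, and 17 against 8 to 11 for the gene ranked 140. Whether these 2 gaps exceed counting error was not tested.

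The set-aside library (labelled skin of fish 6), which was left out of the choice of genes and of the fit over 11 libraries, held 1.24% of its reads in the 143 genes, above the 0.0283 to 0.0723% of the brains, whose low values were used to choose the genes.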

How the results depend on the processing

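The group depends most on scaling and on 1 library. The rule took 143 genes, 224 with TMM-scaled CPM (138 shared), 228 with DESeq2 size factors (136 shared), 88 with a limit of 5-fold between skins, and 18 with the set-aside library (labelled skin of fish 6) counted as a skin. Leaving out each of the 11 libraries in turn gave 138 to 169 genes, and 134 genes were in all 11 of those sets. The mean skin share of 23.1% became 13.5% with the 5-fold limit, and was 21.5 to 26.0% with 1 skin left out. Sums of scaled values, on the percent scale, were 36.3 with TMM factors and 37.5 with DESeq2 size factors. Those sums are not shares of reads. The brain share of 0.0421% became 0.0196% with the 5-fold limit. Genes called higher in skin numbered 7405, 3762 with library size only, 4750 when a change beyond 2-fold was tested, and 4802 with a replicate block over 12 libraries as labelled. With fish number as a replicate block over the 11 libraries 7037 genes were called, and all 143 of the group. Same-numbered skins and brains of fish 8, 38, 41 and 46 correlated in their deviations over 6828 genes by 0.203, 0.126, 0.0562 and 0.366. Skins of fish 8 and 46 correlated best with the brain of their own number. Skins of fish 38 and 41 correlated best with the brain of fish 46, at 0.169 and 0.0710. Read from the brains, those of fish 8, 38 and 46 correlated best with the skin of their own number. Brain of fish 41 correlated best with the skin of fish 8, at 0.107. These values do not settle whether the numbers mark pairs, and the labels do not say. Fish number was therefore used as a block only in alternative fits. The level in the set-aside library, 5.61% of skin, was 5.42% as a ratio of sums, 2.73% with TMM factors, 5.67% and 4.34% with skin limits of 25 and 100 CPM, 5.96% and 4.79% with brain limits of 1/50 and 1/200, 6.15% and 5.78% with spread limits of 5 and 20, and 5.41 to 5.72% without 1 library. The brain level, 0.274%, was 0.185% as a ratio of sums and 0.126% with TMM factors. Median gene length was 2231 and 2174 bases with skin limits of 25 and 100 CPM, 2498 and 2086 with brain limits of 1/50 and 1/200, and 1933 and 1998 with spread limits of 5 and 20. The median ratio of highest to lowest skin was 2.09 to 4.19 with 1 skin left out. Which part of the scaling changes these values was not tested.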
